A study of Mus musculus with 21 samples.

Results

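Retnla, Retnlg, Chi3l3, Mrc1 and Ear2 are 5 genes whose products are used to describe alternatively activated macrophages. They were taken by symbol from a table of read counts that lists 34236 gene names, in which the deposited symbol Chi3l3 stands for the gene now called Chil3, and all 5 were found. Their RNA was measured in 21 libraries of macrophages sorted from the kidneys of male C57BL/6J mice aged 24 weeks. The mice had either RAS (renal artery stenosis, produced by a polytetrafluoroethylene cuff around the right renal artery) or a Sham operation in which the artery was isolated without a cuff. All cells were F4/80 and CD64 positive and negative for lineage markers, and each library came from 1 of 3 gates. CD11chiMϕ, high in both CD11b and CD11c, gave 3 Sham and 4 RAS libraries, CD11cloMϕ, high in CD11b and low or negative in CD11c, gave 3 and 4, and kidney-resident macrophages (KRM), intermediate in both, gave 4 and 3. The study describes the first pair of populations as monocyte-derived and KRM as long-lived resident cells. The labels do not say whether a library is 1 animal or a pool, so the tests measure the spread between libraries, which may in part be technical.

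Alternative activation is the state that macrophages enter under IL-4 and IL-13, cytokines that act through the IL-4 receptor and the transcription factor STAT6, and it is known from allergy, helminth infection and tissue repair. Retnla (RELMα or Fizz1) and Retnlg (RELMγ) encode small secreted proteins of the resistin family, Chi3l3 (Ym1) a secreted chitinase-like protein without chitinase activity, and Ear2 a secreted ribonuclease of the eosinophil-associated family. Mrc1 encodes the mannose receptor CD206, an endocytic lectin of the cell surface. Several of these genes are also used in other cells: Retnlg and Chi3l3 in neutrophils and classical monocytes, Ear2 in Ly6C-low monocytes and eosinophils.

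The stretches upstream of 4 of the genes are shown because the results turn on these genes, and because Retnla and Retnlg, neighbours with like upstream sequence, differed in their pattern over the populations. They are RefSeq sequences on build GRCm38.p6, 5′ to 3′ on the strand of the gene, and RefSeq's table held all 5 genes. Capitals mark matches, searched on both strands in the 250 bases before the RefSeq start, to TTCNNNNGAA (the palindrome with a spacer of 4 that STAT6 prefers), TTCNNNGAA (the general STAT palindrome with a spacer of 3) and TTGCNNAA or its reverse complement TTNNGCAA (a C/EBP-type core). The Retnla stretch is shorter because it ends where the gene annotated by GENCODE begins.
Retnla, chr16:48842359-48842550, + strand: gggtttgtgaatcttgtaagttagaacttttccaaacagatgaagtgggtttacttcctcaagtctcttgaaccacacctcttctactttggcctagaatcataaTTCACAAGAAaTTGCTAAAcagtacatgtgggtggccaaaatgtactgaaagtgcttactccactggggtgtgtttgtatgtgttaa
Retnlg, chr16:48872358-48872607, + strand: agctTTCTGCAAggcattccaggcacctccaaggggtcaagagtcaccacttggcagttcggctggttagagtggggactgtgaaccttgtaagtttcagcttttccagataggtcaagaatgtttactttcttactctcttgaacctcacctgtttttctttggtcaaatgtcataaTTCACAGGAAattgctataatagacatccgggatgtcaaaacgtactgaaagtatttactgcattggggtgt
Chi3l3, chr3:106167565-106167814, - strand: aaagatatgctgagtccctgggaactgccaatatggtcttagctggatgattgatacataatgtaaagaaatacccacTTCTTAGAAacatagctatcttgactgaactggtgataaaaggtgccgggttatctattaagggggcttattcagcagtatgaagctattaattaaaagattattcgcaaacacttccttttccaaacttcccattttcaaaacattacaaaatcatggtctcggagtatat
Ear2, chr14:44102404-44102653, + strand: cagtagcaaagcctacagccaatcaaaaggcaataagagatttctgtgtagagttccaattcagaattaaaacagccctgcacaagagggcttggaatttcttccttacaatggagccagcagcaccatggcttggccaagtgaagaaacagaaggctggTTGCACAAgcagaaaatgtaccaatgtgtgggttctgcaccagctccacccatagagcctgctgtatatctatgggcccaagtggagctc

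The Retnla match TTCACAAGAA began 145 bases before the RefSeq start and the Retnlg match TTCACAGGAA 72 bases before its own. RefSeq's start lies inside the gene annotated by GENCODE for Retnla and before it for Retnlg. The distances therefore depend on the annotation and are not a measured difference between the promoters. The spacer-of-4 motif was present in 5.85% of the 32851 promoters of the same length in the table. A local alignment of both upstream stretches placed 138 identical bases among 175 aligned (78.9%). In the 20 bases that start at the first T of the match, counted as position 1, they differed at 3 positions, A7G, A18T and C20A, with the Retnla base first. Chi3l3 had the spacer-of-3 form TTCTTAGAA, 172 bases before its start (7.02% of promoters). The C/EBP-type core, present in 9.56% of promoters, was found in Retnla (TTGCTAAA, 134 bases before the start), Retnlg (TTCTGCAA, 246) and Ear2 (TTGCACAA, 90), and none of the 3 motifs was found in Mrc1. These matches are letters in a window, and no binding was measured here.

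On GRCm38 with GENCODE annotation, Retnla (chr16:48842551-48844461) and Retnlg (chr16:48872621-48874496) are neighbours on the + strand of chromosome 16. Chi3l3 lies at chr3:106147554-106167564 (- strand), Mrc1 at chr2:14229392-14332057 (+ strand) and Ear2 at chr14:44102654-44103534 (+ strand). All are protein-coding, and the counts are of whole genes. Ear2 shares 26% of its 50-base windows exactly with Ear10 and 23.6% with Ear1, and Chi3l3 shares 16.9% with Chil4 (Chi3l4 in the counts), so reads could have been split between these copies. In the counts these relatives were low: Chi3l4 did not pass 2.20 CPM (counts scaled to a common library size), Ear1 6.07 or Ear10 0.118 in any library, and Ear3, Ear4, Ear7 and Ear12 were not analysed here.

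Library totals ranged from 6891177 to 18592427 counts. A sum over 8 macrophage genes fixed as a check of the gate (Adgre1, Fcgr1, Fcgr4, Itgam, Itgax, Mertk, Cx3cr1 and Csf1r) lay between 1511 and 8385 CPM, and none of these genes was at 0 throughout a group. Some libraries stood apart. CD11chi Sham replicate 3 held the lowest macrophage sum (1511 CPM) and 13526 CPM of 10 proximal tubule genes, against 200 and 234 in the other CD11chi Sham libraries. Replicate 3 was also the highest in these genes in CD11clo Sham (4671 CPM, against 105 and 113) and in KRM Sham (1909 CPM, against 280 to 351). KRM RAS replicate 1 lay nearer to the 4 KRM Sham libraries (mean root mean square distance 1.03 log2 CPM over 14504 genes) than to the other KRM RAS libraries (1.62), which were 0.48 apart. The column of that library in the deposited log2 expression table also did not follow its counts (correlation across 8273 genes 0.0712, against 0.886 to 0.976 for the other 20 libraries), so the values below come from the counts, and the log2 table enters only where limma is named. The calls of the members and of the gene lists that rest on KRM RAS are given with and without that library.

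In each library of the monocyte-derived populations Retnla was abundant, and in KRM it was low. Levels are in CPM with library sizes scaled by the trimmed mean of M values over the 21 libraries. In CD11chiMϕ Retnla was at 2332, 825 and 634 CPM in Sham kidneys and 1242, 3071, 2776 and 2430 CPM in RAS kidneys. In CD11cloMϕ it was at 796, 1490 and 2002 CPM in Sham and 505, 917, 2136 and 2802 CPM in RAS kidneys. In KRM it was at 8.18, 7.72, 7.38 and 8.37 CPM in Sham and 20.04, 41.2 and 39.3 CPM in RAS kidneys. The 14 libraries of monocyte-derived macrophages thus did not overlap with the 7 of KRM, the Sham and RAS libraries of either monocyte-derived population overlapped, and those of KRM did not.

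Retnlg, the neighbour of Retnla, followed another order. It was at 1128, 1266 and 568 CPM in CD11cloMϕ from Sham kidneys and 1240, 731, 153 and 369 CPM in those from RAS kidneys. CD11chiMϕ held 22.9, 42.3 and 1.00 CPM in Sham and 91.4, 9.04, 0.236 and 0 CPM in RAS kidneys, and KRM 3.61, 2.01, 3.14 and 1.46 CPM in Sham and 6.29, 0.174 and 0.0916 CPM in RAS kidneys. Every CD11cloMϕ library was above every other library, and CD11chiMϕ overlapped with KRM. The value of 0 leaves room for up to 3 counts in that library.

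Chi3l3 had the same order as Retnlg in the Sham libraries, and 2 of its 3 Sham levels in CD11cloMϕ were its highest of the series. It was at 4352, 3245 and 457 CPM in CD11cloMϕ from Sham and 873, 873, 150 and 472 CPM in those from RAS kidneys. CD11chiMϕ held 142, 357 and 1.76 CPM in Sham and 170, 12.7, 0.473 and 1.09 CPM in RAS kidneys. KRM held 17.7, 16.4, 17.3 and 12.03 CPM in Sham and 3.54, 0.174 and 0.732 CPM in RAS kidneys, so that all KRM RAS libraries lay below all KRM Sham libraries. The CD11chiMϕ libraries, from 0.473 to 357 CPM, overlapped with those of KRM and, at their upper end, with those of CD11cloMϕ from RAS kidneys. CD11clo Sham replicate 3, the library of its group with the most RNA of proximal tubule genes, held the lowest Chi3l3 and Retnlg of the 3.

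Ear2 was the member that set CD11chiMϕ apart in RAS kidneys. It was at 328, 173 and 32.1 CPM in CD11chiMϕ from Sham and 307, 597, 1073 and 1078 CPM in those from RAS kidneys. CD11cloMϕ held 98.5, 115 and 124 CPM in Sham and 107, 101, 53.6 and 116.8 CPM in RAS kidneys, and KRM 6.26, 3.28, 5.14 and 4.81 CPM in Sham and 18.0, 13.4 and 11.7 CPM in RAS kidneys. All KRM libraries were below all others, and the RAS libraries of CD11chiMϕ were above all CD11cloMϕ libraries.

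Mrc1 was the exception in this set, since KRM held as much of it as the monocyte-derived populations. It was at 147, 317 and 114 CPM in CD11chiMϕ from Sham and 320, 201, 353 and 352 CPM in those from RAS kidneys. CD11cloMϕ held 87.8, 83.5 and 185 CPM in Sham and 188, 152, 1238 and 386 CPM in RAS kidneys, and KRM 262, 323, 374 and 369 CPM in Sham and 380, 315 and 448 CPM in RAS kidneys. KRM varied least, and CD11cloMϕ RAS replicate 3 was above every other library.

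**Figure D1:**
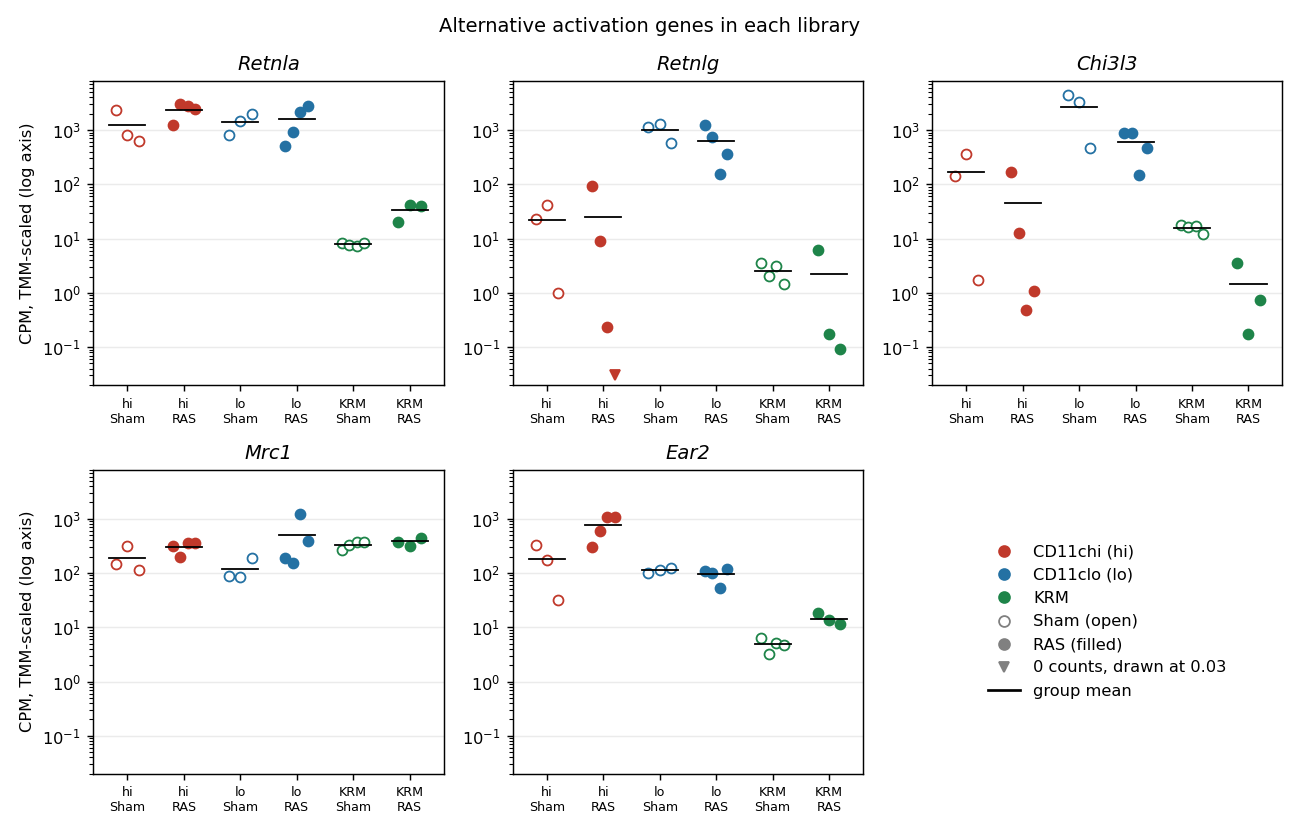
Each panel shows the level in CPM (log axis, scaled over the 21 libraries) of 1 gene in every library, by population, with open circles for Sham and filled circles for RAS kidneys, a line at the group mean and triangles for counts of 0. Retnla sat at 505 CPM or more in all CD11chiMϕ and CD11cloMϕ libraries and at 41.2 CPM or less in KRM, whereas Mrc1 lay between 83.5 and 1238 CPM in all populations.

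To order genes of different length within a group, CPM was divided by the exon length in kilobases. Retnla was first in all 4 groups of monocyte-derived macrophages, with 2110 ± 1553 CPM per kb (SD, n = 3) in CD11chiMϕ and 2386 ± 1011 (n = 3) in CD11cloMϕ from Sham kidneys. In CD11cloMϕ from Sham kidneys Retnlg (1665 ± 623 CPM per kb) and Chi3l3 (1645 ± 1230 CPM per kb) came next, and the spreads of these 3 genes overlapped. In CD11chiMϕ Ear2 was second in Sham (247 ± 206 CPM per kb) and in RAS kidneys (1062 ± 527 CPM per kb, n = 4). In KRM Mrc1 was first, at 52.2 ± 8.14 CPM per kb in Sham kidneys (n = 4) with Retnla second at 13.2 ± 0.746. In KRM from RAS kidneys Mrc1 (59.8 ± 10.4 CPM per kb, n = 3) and Retnla (56.0 ± 19.6 CPM per kb) did not differ beyond their spread. Mrc1, first in KRM, was last of the 5 genes in both CD11cloMϕ groups.

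The first question of the design was how resident and monocyte-derived macrophages differ in Sham kidneys. Each test used edgeR's quasi-likelihood method, with p adjusted after Benjamini and Hochberg over all genes tested, and a change was called at an adjusted p under 0.05. Against CD11cloMϕ in Sham kidneys, KRM were lower for 4 members and higher for Mrc1, so that all 5 were called, where 41.8% of the 12399 genes tested were called (22.3% lower and 19.5% higher). Retnlg was 387-fold lower in KRM (log2 fold change -8.59 ± 0.44, SE, adjusted p = 5.09e-06). Retnla was 182-fold lower (-7.51 ± 0.33, adjusted p = 2.66e-06) and Chi3l3 173-fold lower (-7.44 ± 0.75, adjusted p = 0.000143). Ear2 was 23.3-fold lower (-4.54 ± 0.21, adjusted p = 3.67e-06). Mrc1 was 2.78-fold higher in KRM (1.47 ± 0.29, adjusted p = 0.00417), and this call was lost in a single fit over all 6 groups (adjusted p = 0.0667). The median log2 fold change of the members was -7.44, beside -0.04 for all genes tested, and all 5 were called whichever library was left out. Without CD11clo Sham replicate 3 Chi3l3 was at -7.94 and Retnlg at -8.87.

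Against CD11chiMϕ in Sham kidneys, 2 of 5 members were called, both lower in KRM, where 5.12% of the 12404 genes tested were called and 4.12% were called lower. These were Retnla (164-fold lower, log2 fold change -7.36 ± 0.53, adjusted p = 0.00249) and Ear2 (37.0-fold lower, -5.21 ± 0.71, adjusted p = 0.0114). With 1 library left out Retnla lay between -7.66 and -6.56 and Ear2 between -5.69 and -4.40. Ear2 lost its call with the replicate number as a block (-4.77, adjusted p = 0.0795) and, narrowly, without KRM Sham replicate 1, 2 or 4 (adjusted p = 0.0501, 0.0535 and 0.0532). Retnlg (-3.11 ± 0.95, adjusted p = 0.111), Chi3l3 (-3.40 ± 1.17, adjusted p = 0.138) and Mrc1 (0.75 ± 0.35, adjusted p = 0.234) were not called. Whether Retnlg and Chi3l3 were called depended on CD11chi Sham replicate 3, the library with the most RNA of proximal tubule genes, in which they were at 1.00 and 1.76 CPM. Without it, Retnlg (-3.66, adjusted p = 0.000829) and Chi3l3 (-3.98, adjusted p = 0.000308) were called lower in KRM together with Retnla and Ear2. The sum of 9 dendritic cell genes moved with this comparison, at 426 to 1923 CPM in CD11chiMϕ and 177 to 230 CPM in KRM from Sham kidneys, and 5 of the 9 were called lower in KRM, led by Cd209a (-5.89, adjusted p = 0.00635), and 0 higher. The count was 8 without CD11chi Sham replicate 3 and 1 to 3 without each of the other libraries, none of the 9 was at 0 throughout a group, and the part of these cells in the results was not tested. In bulk libraries a lower share of cells that hold a transcript and less RNA per cell cannot be told apart.

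Between the monocyte-derived populations of Sham kidneys, 0 of 5 members were called in edgeR's quasi-likelihood test, where 1.52% of the 12105 genes tested were called, while 1 (Retnlg) had an unadjusted p under 0.05 and DESeq2 called 1 and limma 0. Retnla was close (CD11chiMϕ against CD11cloMϕ, log2 fold change -0.13 ± 0.59, adjusted p = 0.917), an interval that still spans changes in both directions. Retnlg (-5.46 ± 1.22, adjusted p = 0.0937) and Chi3l3 (-3.98 ± 1.65, adjusted p = 0.284) did not overlap between the populations, with all CD11chiMϕ libraries lower, as 14.3% of all genes tested were, and were at -5.73 and -4.48 without CD11clo Sham replicate 3 (adjusted p = 0.148 and 0.294). Over all fits with 1 library left out the adjusted p ranged from 0.00910 to 0.357 for Retnlg and from 0.120 to 0.615 for Chi3l3. Libraries with the same replicate number varied together here, and with that number as a block Retnlg (-6.16, adjusted p = 0.0153) and Chi3l3 (-5.10, adjusted p = 0.0358) were called. Mrc1 (0.75 ± 0.48) and Ear2 (0.68 ± 0.69) had adjusted p-values of 0.467 or more.

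**Figure D2:**
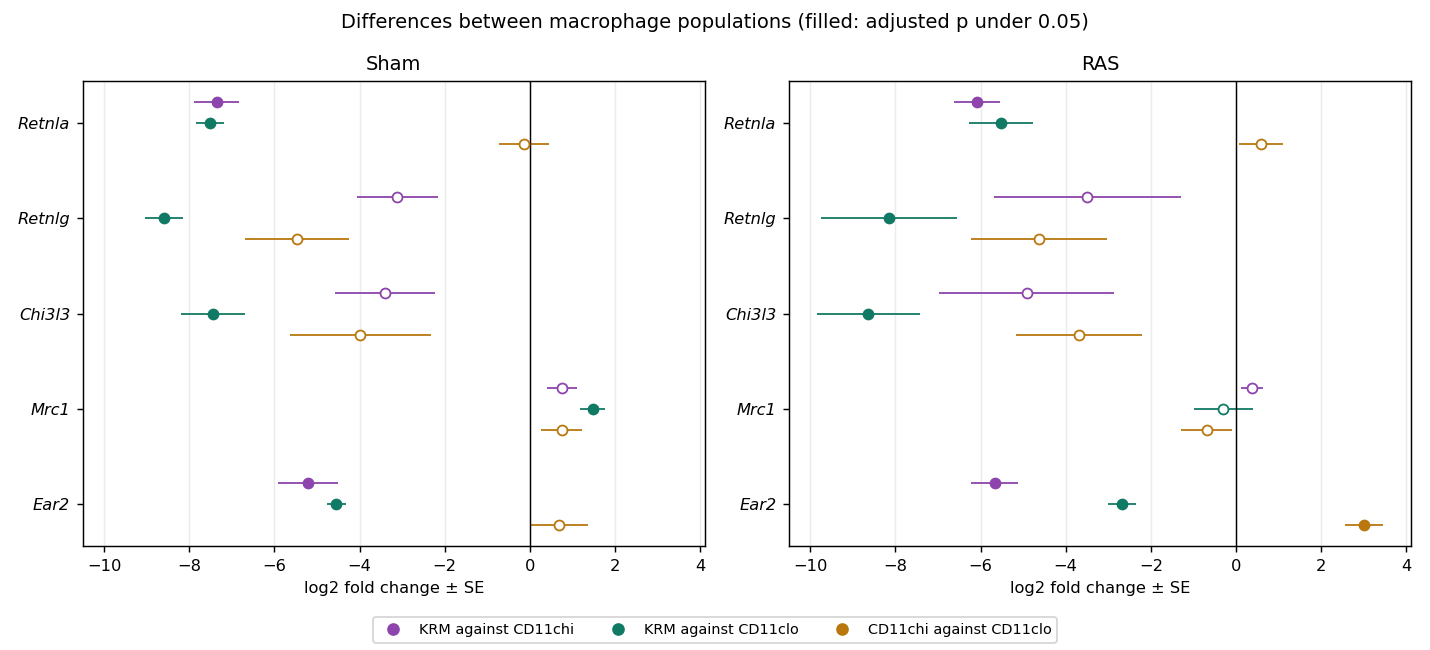
Points give the log2 fold change of each gene between populations (horizontal axis, lines ± SE) in Sham and RAS kidneys, filled where the adjusted p was under 0.05. In Sham kidneys all 5 genes were called between KRM and CD11cloMϕ and 2 of 5 between KRM and CD11chiMϕ, and in RAS kidneys Ear2 was the gene called in all 3 pairs.

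In RAS kidneys the same comparisons were made among stenotic-kidney macrophages. Against CD11cloMϕ, KRM were lower for 4 of 5 members, where 9.17% of the 13179 genes tested were called and 5.89% were called lower. Chi3l3 was 397-fold lower (log2 fold change -8.63 ± 1.20, adjusted p = 0.0156), Retnlg 284-fold (-8.15 ± 1.59, adjusted p = 0.0326) and Retnla 45.9-fold (-5.52 ± 0.76, adjusted p = 0.0156). Ear2 (-2.68 ± 0.33, adjusted p = 0.0135) was also lower, whereas Mrc1 (-0.30 ± 0.69, adjusted p = 0.790) was not called. These calls depended on which libraries were fitted: 0 members were called without CD11clo RAS replicate 2 (45 genes called in all) and without KRM RAS replicate 2 or 3 (0 genes), and 2 without CD11clo RAS replicate 4 (89 genes). Over the 7 fits with 1 library left out the log2 fold changes stayed lower in KRM, from -10.29 to -8.10 for Chi3l3, -12.02 to -7.57 for Retnlg, -5.82 to -5.06 for Retnla and -2.88 to -2.54 for Ear2. Without KRM RAS replicate 1 the 4 members were called (3239 of 14072 genes called in all), with Chi3l3 at -10.29 and Retnlg at -12.02. Retnlg was then left with 3 counts in KRM, and the ratio of pooled counts, CD11cloMϕ over KRM, was 4801 with a 95% exact counting interval of 1642 to 23280 that covers counting error only. The libraries of the 4 genes did not overlap between the populations, where 17.6% of all genes tested had every KRM library lower.

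Against CD11chiMϕ in RAS kidneys, Retnla (68.0-fold, log2 fold change -6.09 ± 0.54, adjusted p = 0.00533) and Ear2 (50.9-fold, -5.67 ± 0.56, adjusted p = 0.00593) were lower in KRM. They were 2 of 5 members tested, where 9.23% of the 13226 genes tested were called, 5.07% lower and 4.17% higher. Without KRM RAS replicate 2 the count was 1 (14 genes called in all). Retnlg (-3.49 ± 2.20, adjusted p = 0.321) and Chi3l3 (-4.92 ± 2.06, adjusted p = 0.154) were not called, nor was Mrc1 (0.38 ± 0.26). Without KRM RAS replicate 1 Retnla (-5.85, adjusted p = 0.00107) and Ear2 (-5.88, adjusted p = 0.00174) were again the 2 members called (2788 of 14257 genes called in all). Retnlg then moved to -7.37 (unadjusted p = 0.0452, adjusted p = 0.135, ratio of pooled counts 230, exact 95% counting interval 78.4 to 1116) and Chi3l3 to -6.58 (unadjusted p = 0.0423, adjusted p = 0.129), and without CD11chi RAS replicate 1 or 2 both genes were below the filter on low counts. The dendritic cell sum was 1183 to 5642 CPM in CD11chiMϕ and 199 to 248 CPM in KRM here, with 5 of the 9 genes called lower in KRM (6 without KRM RAS replicate 1), and its part in the results was not tested.

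CD11chiMϕ and CD11cloMϕ from RAS kidneys differed in Ear2, 1 of 5 members, where 8.27% of the 12305 genes tested were called, 5.15% higher and 3.12% lower. Ear2 was 8.03-fold higher in CD11chiMϕ (log2 fold change 3.01 ± 0.44, adjusted p = 0.00626), without overlap between libraries (9.35% of all genes tested had every CD11chiMϕ library higher), and kept this call in all 17 alternatives run. The sum of 9 dendritic cell genes moved with it, at 1183 to 5642 CPM in CD11chiMϕ and 167 to 470 CPM in CD11cloMϕ from RAS kidneys, with none of the 9 at 0 throughout, and 8 of the 9 were called higher. Cd209a, a member of that list, was at 693, 1436, 4035 and 4263 CPM in the CD11chiMϕ RAS libraries, and the part of these cells in the Ear2 result was not tested. Retnla (0.58 ± 0.52), Mrc1 (-0.69 ± 0.60), Retnlg (-4.63 ± 1.60, adjusted p = 0.102) and Chi3l3 (-3.68 ± 1.47, adjusted p = 0.148) were not called. CD11chi RAS replicate 1 held the highest Retnlg and Chi3l3 of its group, and without it both genes were called lower in CD11chiMϕ (log2 fold changes -7.71 and -6.99, adjusted p = 0.0114 and 0.00780), which brought the count to 3.

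That library also held the highest Ly6c2 of CD11chiMϕ, the gene of the Ly6C antigen of classical monocytes. Ly6c2 was at 113, 24.3, 6.74 and 7.41 CPM in the CD11chiMϕ RAS libraries, 50.3, 64.7 and 10.4 CPM in the Sham ones, 208 to 989 CPM in CD11cloMϕ and 5.78 to 61.7 CPM in KRM, where the highest value was KRM RAS replicate 1. Retnlg was highest in the same library of each of these groups of CD11chiMϕ RAS and KRM RAS. Over 8 classical monocyte genes the summed level was 437 to 2013 CPM in CD11chiMϕ, 2883 to 10022 CPM in CD11cloMϕ and 555 to 996 CPM in KRM, and none of the 8 was at 0 throughout a group. The sum of 12 neutrophil genes was 653 to 4626 CPM in CD11cloMϕ and 16.0 to 321 CPM in the other populations, where 2 to 5 of the 12 were at 0 throughout a group. The sum of 7 eosinophil genes was 79.5 to 613 CPM in CD11cloMϕ and 2.51 to 54.9 CPM elsewhere. Among them Gata1 (-8.83), Ccr3 (-8.40), Siglec5 (-6.57) and Il5ra (-6.54) were called lower in KRM than in CD11cloMϕ in Sham kidneys (adjusted p = 9.98e-05 or less). Prg2 (-0.66) was not called there, and Epx, the eosinophil peroxidase, did not pass 0.477 CPM in any library. The sum of 8 nonclassical monocyte genes was 729 to 2868 CPM in CD11chiMϕ, 2057 to 4183 CPM in CD11cloMϕ and 903 to 1190 CPM in KRM, and that of 10 serous cavity macrophage genes 82.2 to 381, 362 to 1754 and 33.6 to 54.4 CPM. Ly6G-positive cells had been gated out, and the part of such cells in the levels of Retnlg, Chi3l3 and Ear2 was not tested.

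**Figure D3:**
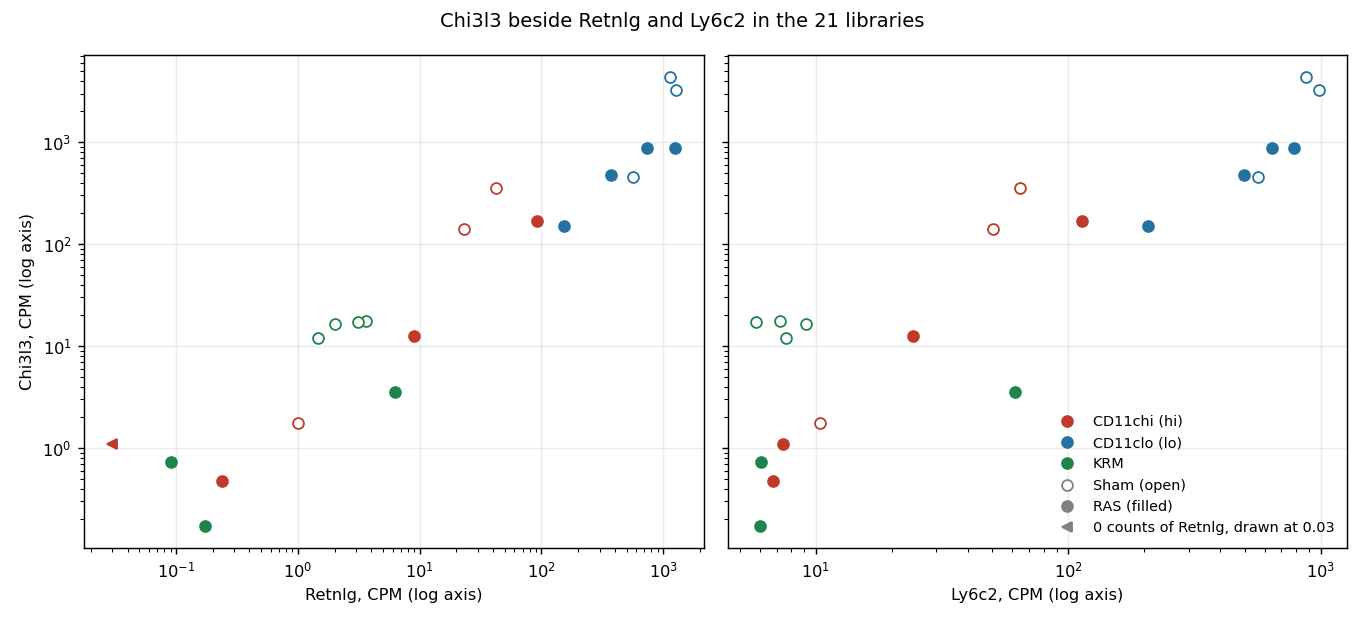
Each point is 1 of 21 libraries, with Chi3l3 (vertical, CPM, log axis) against Retnlg and against Ly6c2 (horizontal, CPM, log axis), coloured by population, open for Sham and filled for RAS kidneys. The CD11cloMϕ libraries lie apart at 153 CPM or more of Retnlg, beside 91.4 CPM or less elsewhere, whereas for Chi3l3 2 CD11chiMϕ libraries (357 and 170 CPM) lie above the lowest CD11cloMϕ library (150 CPM).

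The second question was what RAS changed within each population. In CD11chiMϕ 0 of 5 members were called, where edgeR's quasi-likelihood test called 0.00% of the 12739 genes tested (0 genes, with 1247 at an unadjusted p under 0.05, 197 called by DESeq2 and 0 by limma). Ear2 had a log2 fold change of 2.03 ± 0.76 (unadjusted p = 0.0283, adjusted p = 0.508), with RAS replicate 1 below Sham replicate 1. Retnla (0.83 ± 0.55), Mrc1 (0.60 ± 0.40), Retnlg (0.18 ± 1.84) and Chi3l3 (-1.86 ± 1.87) had unadjusted p-values of 0.168 or more. The Chi3l3 value rested on single libraries, with -5.20 without CD11chi RAS replicate 1 (unadjusted p = 0.0305, adjusted p = 0.262) and -0.67 without CD11chi Sham replicate 2. The dendritic cell sum was 426 to 1923 CPM in Sham and 1183 to 5642 CPM in RAS libraries.

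In CD11cloMϕ 0 of 5 members were called, where the same test called 0.00% of the 12301 genes tested (0 genes, with 1102 at an unadjusted p under 0.05, 103 called by DESeq2 and 0 by limma). Chi3l3 had a log2 fold change of -2.17 ± 0.78 (unadjusted p = 0.0239) and Mrc1 2.02 ± 0.78 (unadjusted p = 0.0321), both with an adjusted p = 0.553. Without CD11clo Sham replicate 3 Chi3l3 was at -2.67 (unadjusted p = 0.00266, adjusted p = 0.550), and the Mrc1 value fell to 1.02 without CD11clo RAS replicate 3. Retnla (0.13 ± 0.59), Retnlg (-0.66 ± 0.63) and Ear2 (-0.27 ± 0.26) had unadjusted p-values of 0.325 or more. On counts simulated for this comparison 86.0% of genes with a log2 change of 3 and 42.5% of those with 1.5 were called among 11923 genes, so changes of the smaller size could have been missed. The simulation changed genes drawn at random and held no shift of a single library such as replicate 3. It therefore does not show that a larger change of a given member would have been called.

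In KRM RAS changed 3 of 5 members, 2 higher and 1 lower, where 9.70% of the 12852 genes tested were called (7.77% higher and 1.94% lower). Retnla rose 4.58-fold (log2 fold change 2.20 ± 0.27, adjusted p = 0.0140) and Ear2 3.16-fold (1.66 ± 0.28, adjusted p = 0.0231). Chi3l3 fell 10.1-fold (-3.34 ± 0.79, adjusted p = 0.0419). The libraries of these 3 genes did not overlap, where 10.47% of all genes tested had every RAS library higher and 17.1% every RAS library lower. Mrc1 (0.30 ± 0.18, adjusted p = 0.268) and Retnlg (-0.17 ± 1.16, adjusted p = 0.930) were not called. Even after the rise Retnla in KRM (33.5 ± 11.7 CPM, SD, n = 3) remained 68.0-fold below CD11chiMϕ from the same condition.

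These calls depended on which libraries were fitted. Without KRM RAS replicate 1, the library nearer to the Sham group, 4 members were called, where 50.2% of 14088 genes were called. Retnla (2.42, adjusted p = 2.05e-05) and Ear2 (1.44, adjusted p = 0.00447) were higher, Chi3l3 (-5.04, adjusted p = 0.000223) and Retnlg (-4.09, adjusted p = 0.00247) lower. Retnlg then had 3 counts in KRM RAS, and its pooled ratio of Sham to RAS was 19.9 (95% exact counting interval 6.65 to 97.8). Mrc1 stayed at 0.27. In a single fit over all 6 groups Retnla was the 1 member called (2.08, adjusted p = 0.0268), with Ear2 at 1.56 (adjusted p = 0.0782) and Chi3l3 at -3.43 (adjusted p = 0.206). By contrast 0 members were called without KRM Sham replicate 1, 2 or 4 or without KRM RAS replicate 2 or 3, fits in which 28 to 43 genes were called in all. In those 5 fits and every other one run on the counts, Retnla stayed between 2.00 and 2.42, Ear2 between 1.44 and 1.80 and Chi3l3 between -5.04 and -2.83.

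Transcripts of the thick ascending limb moved with this comparison. Umod and Slc12a1, which encode uromodulin and the sodium-potassium-chloride cotransporter of that segment and were chosen after their values were seen, were at 54.6, 1947 and 1450 CPM and at 21.5, 705 and 522 CPM in the KRM RAS libraries. In the KRM Sham libraries Umod was at 4.33, 2.86, 112 and 2.41 CPM. The 8 macrophage genes of the gate check moved too, with a sum of 7136 to 7892 CPM in KRM Sham and 3492 to 6479 CPM in KRM RAS libraries. Of these Fcgr4 (-0.94, adjusted p = 0.0361) and Itgax (-0.86, adjusted p = 0.0422) were called lower, and none had a positive log2 fold change. The sum of the 10 proximal tubule genes overlapped, at 280 to 1909 CPM in KRM Sham and 639 to 1169 CPM in KRM RAS libraries. The sum of 9 endothelial genes was 49.8 to 72.3 CPM in KRM Sham and 61.6 to 256 CPM in KRM RAS libraries. The sum of the 9 dendritic cell genes overlapped, at 177 to 230 and 199 to 248 CPM, with 3 called higher and 1 lower. The 8 classical monocyte genes summed to 555 to 848 CPM in KRM Sham and 650 to 996 CPM in KRM RAS libraries. Of these genes Ly6c1 (4.57, adjusted p = 0.0269) and Plac8 (1.08, adjusted p = 0.0270) were called higher. No other gene of that list was called, and Hp (-0.69) and Vcan (-0.77) had negative values. The part of tubular, endothelial, dendritic cell or monocyte-derived RNA in the changes was not tested.

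**Figure D4:**
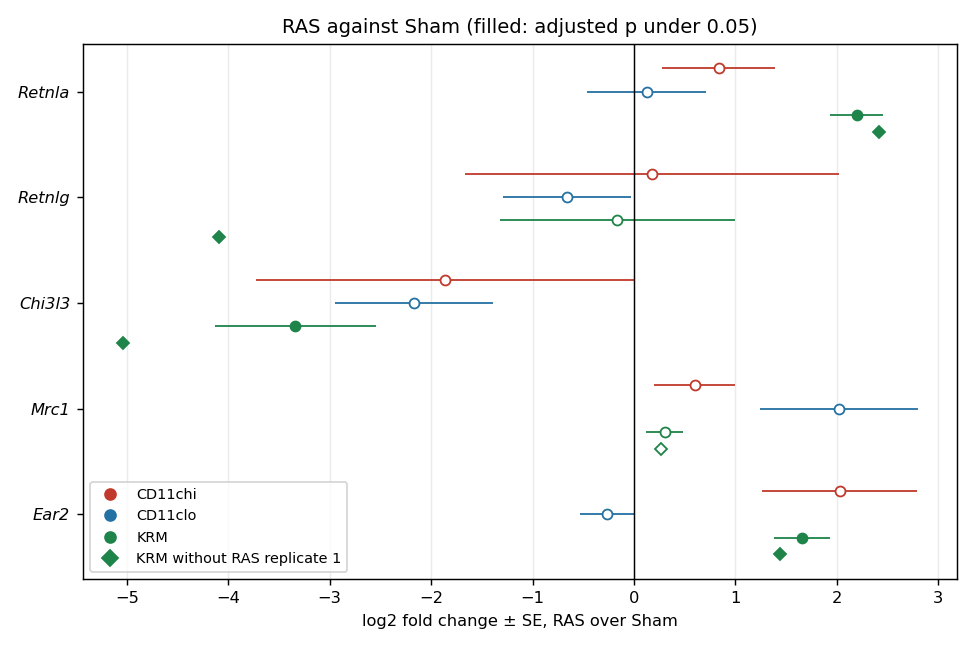
Points give the log2 fold change of RAS against Sham for each gene (horizontal axis, lines ± SE) in CD11chiMϕ, CD11cloMϕ and KRM, filled where the adjusted p was under 0.05, with diamonds for KRM without RAS replicate 1. Filled points with all libraries are Retnla (2.20), Ear2 (1.66) and Chi3l3 (-3.34) in KRM, and none in CD11chiMϕ or CD11cloMϕ.

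Whether the response differed between populations was tested as an interaction. Between KRM and CD11cloMϕ 0 of 5 members were called, where 0.245% of the 13877 genes tested were called (34 genes, 0.223% higher and 0.0216% lower). Ear2 came nearest, with a response larger in KRM by 1.86 ± 0.37 on the log2 scale (unadjusted p = 0.000246, adjusted p = 0.0549), and its adjusted p ranged from 0.000603 to 0.232 over 24 alternatives, of which 11 called it. Retnla differed by 1.97 ± 0.69 (adjusted p = 0.125) and Mrc1 by -1.81 ± 0.82 (adjusted p = 0.206), the other 2 members with an unadjusted p under 0.05. DESeq2 and limma each called 2 members. Without KRM RAS replicate 1 edgeR called 2 members, Ear2 (1.65, adjusted p = 0.0153) and Retnla (2.22, adjusted p = 0.0495), among 2357 of 14638 genes. Between KRM and CD11chiMϕ 0 of 5 members were called, where edgeR called 0.00% of the 14137 genes tested (0 genes, with 2999 at an unadjusted p under 0.05, 1226 called by DESeq2 and 133 by limma). Retnla differed by 1.31 ± 0.61 (adjusted p = 0.240), Chi3l3 by -1.52 ± 2.32 and Ear2 by -0.41 ± 0.84. These values were 1.57, -3.18 and -0.60 without KRM RAS replicate 1, when 0 members were called (1097 of 14828 genes called in all). Between CD11chiMϕ and CD11cloMϕ 0 of 5 members were called, where edgeR called 0.00% of the 13540 genes tested (0 genes, with 900 at an unadjusted p under 0.05, 15 called by DESeq2 and 0 by limma), and Ear2 differed by 2.35 ± 0.84 (unadjusted p = 0.0149, adjusted p = 0.735). In edgeR's main fit of all libraries, the calls in KRM alone therefore do not show that KRM responded differently. Against CD11cloMϕ the answer depended on the method, since DESeq2 and limma called members there with all libraries fitted.

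A second rule took the thresholds of the study's methods, a fold above 2 and a P under 0.05 for which no adjustment is stated, and applied them to the unadjusted p of edgeR. By this rule the members called in Sham kidneys were 4 of 5 between KRM and CD11chiMϕ (12.5% of all genes tested), 5 of 5 between KRM and CD11cloMϕ (25.2%) and 1 of 5 between CD11chiMϕ and CD11cloMϕ (12.6%). In RAS kidneys they were 3 (20.8%), 4 (20.3%) and 3 (14.2%) of 5 in the same order. For RAS against Sham they were 1 of 5 in CD11chiMϕ (8.07%), 2 of 5 in CD11cloMϕ (4.37%) and 3 of 5 in KRM (16.4%). For the differences in response they were 0 of 5 for KRM against CD11chiMϕ (18.9%), 3 of 5 for KRM against CD11cloMϕ (16.4%) and 1 of 5 for CD11chiMϕ against CD11cloMϕ (5.25%).

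Among 20 other genes that alternative activation is known to induce, most of those called were lower in KRM from Sham kidneys. So were the secreted members against CD11cloMϕ, but only Retnla and Ear2 of them against CD11chiMϕ. Against CD11chiMϕ in Sham kidneys 1 of 19 tested was higher in KRM and 11 were lower, beside 1.00% and 4.12% over all genes tested and beside 5 of 9 dendritic cell genes that were lower as well, and the median of the list was -2.27 on the log2 scale beside -0.07 over all genes tested. Ch25h, the cholesterol 25-hydroxylase, was the highest (1.53 ± 0.23, adjusted p = 0.0146) and Ccl24 (eotaxin-2), a chemokine for eosinophils, the lowest of those called (-5.86 ± 0.54, adjusted p = 0.00358). With 1 library left out 7 to 12 were lower and 0 to 3 higher. Against CD11cloMϕ 4 of 18 were higher and 9 lower (19.5% and 22.3% over all genes tested, median -1.40), from Ch25h (5.63 ± 0.50, adjusted p = 6.66e-05) to Ccl24 (-6.80 ± 0.53, adjusted p = 3.69e-05). Ccl24 was at 24.96 to 77.9 CPM in the Sham libraries of monocyte-derived macrophages and at 0.105 to 0.963 CPM in those of KRM. Between CD11chiMϕ and CD11cloMϕ from Sham kidneys 1 of 19 was called, Ch25h (4.15 ± 0.68, adjusted p = 0.0492). Without CD11chi Sham replicate 3 the count was 4 higher and 1 lower of 20, and it was 0 without each of the other 5 libraries.

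In RAS kidneys KRM were lower for 7 of these 20 genes against CD11chiMϕ and for 5 of 20 against CD11cloMϕ, beside 5.07% and 5.89% over all genes tested, and higher for 0. When KRM RAS replicate 1 was left out the counts were 6 lower and 1 higher against CD11chiMϕ (6.79% and 12.8% of all genes tested) and 4 lower and 2 higher against CD11cloMϕ (10.4% and 12.6%). Against CD11chiMϕ 3 were lower without CD11chi RAS replicate 2, 1 without its replicate 4, and 0 without its replicate 3 or KRM RAS replicate 2 or 3, while 3 were higher and 8 lower without CD11chi RAS replicate 1. Against CD11cloMϕ 3 were lower without CD11clo RAS replicate 2 or 4, and 0 without KRM RAS replicate 2 or 3. Ccl17, a chemokine that binds CCR4 on T cells, differed most against CD11chiMϕ (-7.66 ± 1.27, adjusted p = 0.0234), and F13a1, the A chain of coagulation factor XIII, against CD11cloMϕ (-5.44 ± 0.43, adjusted p = 0.00831). They were at -7.33 (adjusted p = 0.0141) and -5.41 (adjusted p = 0.00647) without KRM RAS replicate 1. CD11chiMϕ exceeded CD11cloMϕ in 5 of 20, led by Ccl17 (10.25 ± 1.16, adjusted p = 0.00297), and were below it in 2, led by F13a1 (-4.05 ± 0.69, adjusted p = 0.0103). These counts were 3 to 8 and 2 to 3 with 1 library left out, and 8 of the 9 dendritic cell genes were higher in the same comparison (4 to 9 with 1 library left out). The part of dendritic cells in these counts was not tested. Ccl17 was at 38.1, 793, 583 and 610 CPM in the CD11chiMϕ RAS libraries and at or below 0.905 CPM in CD11cloMϕ, so that replicate 1 was the lowest of its group, as it was for Ear2.

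With RAS 9 of 19 of these genes rose in KRM and 1 fell, beside 7.77% and 1.94% over all genes tested (median log2 fold change 0.94, beside 0.02 for all genes tested). Il1rn, the antagonist of the interleukin-1 receptor, rose most (5.62 ± 0.86, adjusted p = 0.0190), from 1.46 to 2.29 CPM in Sham to 8.64, 113 and 136 CPM in RAS libraries, and Ch25h fell (-1.06 ± 0.24, adjusted p = 0.0386). As for the members, the counts were 10 higher and 3 lower without KRM RAS replicate 1 (28.1% and 22.1% of all genes tested), 8 and 1 without KRM Sham replicate 3, and 0 and 0 without each of the other libraries. The list holds genes that tubules or endothelium also use, such as Cdh1, which was at 8.64, 314 and 245 CPM in the KRM RAS libraries beside the Umod values given above. In CD11chiMϕ 0 of 20 and in CD11cloMϕ 0 of 19 were called by RAS.

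**Figure D5:**
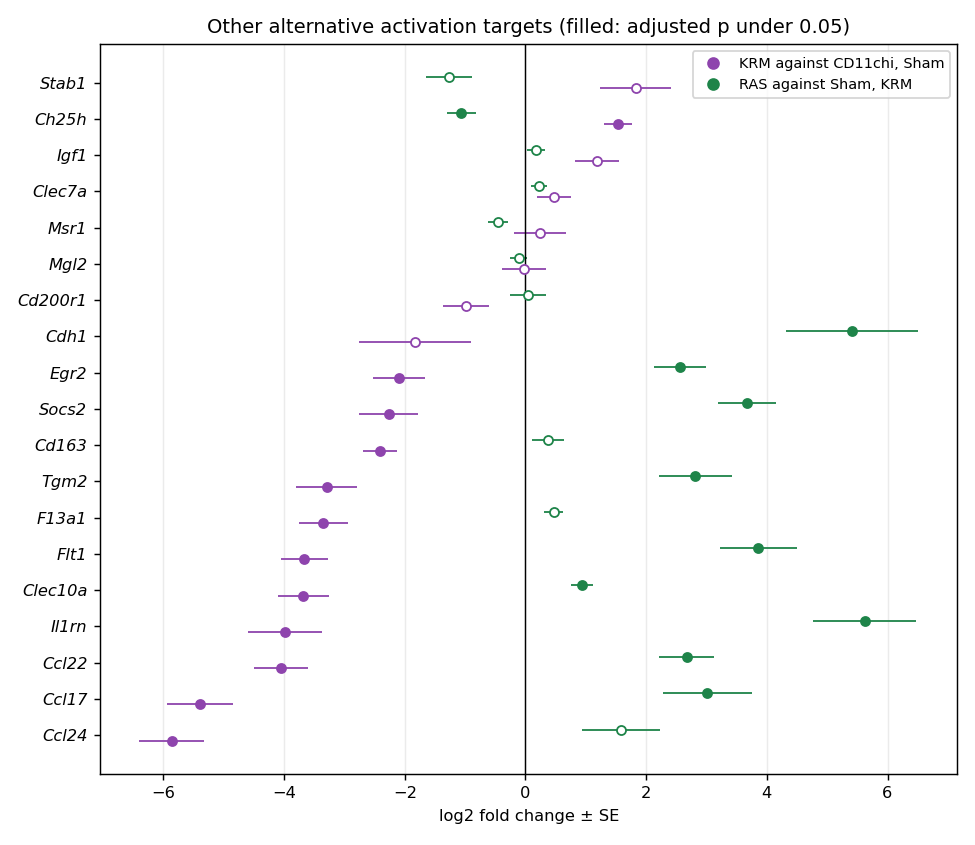
Points give the log2 fold change (horizontal axis, lines ± SE) of each tested gene of the list of other alternative activation targets for KRM against CD11chiMϕ in Sham kidneys and for RAS against Sham in KRM, filled where the adjusted p was under 0.05. The comparisons share the 4 KRM Sham libraries, so that opposite signs in both are not independent, and 1 gene was higher and 11 lower in the first while 9 were higher and 1 lower in the second.

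The genes that carry the IL-4 and IL-13 signal were listed next. Of 15 listed, 12 were tested between KRM and CD11chiMϕ in Sham kidneys and 0 were called (median log2 fold change 0.02). Against CD11cloMϕ 1 of 13 was higher in KRM, Pparg, a nuclear receptor that supports alternative activation (2.01 ± 0.23, adjusted p = 0.000263), and 6 were lower, with Il4 itself the lowest (adjusted p = 0.000213), beside 19.5% higher and 22.3% lower over all genes tested, so that the higher share was below and the lower share above the background. Without CD11clo Sham replicate 3 the count was 9 lower and 1 higher (24.8% and 22.3% of all genes tested). Il4 was low throughout, at 14.2, 17.9 and 4.20 CPM in CD11cloMϕ from Sham kidneys and at 0, 0.106, 0 and 0 CPM in KRM. With 1 count in KRM its ratio of pooled counts, CD11cloMϕ over KRM, was 570, with a 95% exact counting interval of 102 to 22585. With RAS 2 of 12 were called in KRM, Socs1, a feedback inhibitor of cytokine receptors (1.13 ± 0.28, adjusted p = 0.0445), and Pparg (-0.83 ± 0.19, adjusted p = 0.0413), beside 9.70% over all genes tested, and 0 of 13 in each of the other populations. The KRM calls without KRM RAS replicate 1 were 2 higher and 5 lower of 12 (28.1% and 22.1% of all genes tested), with Socs1 at 1.10 (adjusted p = 0.0196) and Pparg at -1.12 (adjusted p = 0.000439), and 0 were called without KRM Sham replicate 1, 2 or 4 or KRM RAS replicate 2 or 3. In RAS kidneys Irf4, a transcription factor downstream of IL-4 that is also 1 of the 9 genes of the dendritic cell list, was lower in KRM than in CD11chiMϕ (-3.59 ± 0.50, adjusted p = 0.0166) and higher in CD11chiMϕ than in CD11cloMϕ (2.34 ± 0.42, adjusted p = 0.0132), the only gene of the IL-4 list called in either. Other dendritic cell genes moved with it between KRM and CD11chiMϕ, such as Flt3 (-4.61, adjusted p = 0.00700), Zbtb46 (-3.22, adjusted p = 0.0190) and Ccr7 (-4.08, adjusted p = 0.0298), and the call of Irf4 between CD11chiMϕ and CD11cloMϕ was lost without CD11clo RAS replicate 2 or 4. Stat6 was the lower of 2 genes called between KRM and CD11cloMϕ there (-1.02 ± 0.23, adjusted p = 0.0392). Irf4 without KRM RAS replicate 1 was at -3.76 (adjusted p = 0.00668) and Stat6 at -1.17 (adjusted p = 0.0228), while 0 genes of the list were called between KRM and either population without KRM RAS replicate 2 or 3, against CD11chiMϕ without CD11chi RAS replicate 3 or 4, and against CD11cloMϕ without CD11clo RAS replicate 1, 2 or 4.

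Another list held 13 genes of arginine uptake and use. Against CD11cloMϕ in Sham kidneys 1 of 11 tested was higher in KRM, Gatm, the first enzyme of creatine synthesis (2.54 ± 0.50, adjusted p = 0.00439), and 3 were lower, led by Slc7a2, the transporter of cationic amino acids CAT2 (-5.48 ± 1.15, adjusted p = 0.00596), a total of 4 of 11 that lies near the 41.8% called over all genes tested. Gatm is also abundant in proximal tubules and reached 1670 CPM in CD11chi Sham replicate 3. Against CD11chiMϕ 0 of 10 were called. With RAS Odc1, ornithine decarboxylase, which makes putrescine from ornithine, rose in KRM (1.25 ± 0.31, adjusted p = 0.0465), the 1 gene called of 10 tested, which is near the 9.70% over all genes tested. It was at 1.45 without KRM RAS replicate 1 (adjusted p = 0.00233), when 6 of 12 were called, all higher (28.1% of all genes tested), and 0 were called in the same 5 left-out fits as before. With RAS 0 of 11 were called in CD11chiMϕ and in CD11cloMϕ. In RAS kidneys Gatm was higher (1.26 ± 0.27, adjusted p = 0.0354) and Sms, spermine synthase, lower (-1.10 ± 0.28, adjusted p = 0.0494) in KRM than in CD11chiMϕ, and Slc25a15, the mitochondrial ornithine carrier, higher than in CD11cloMϕ (1.19 ± 0.27, adjusted p = 0.0402). The same 3 genes were at 1.05 (adjusted p = 0.0380), -1.37 (adjusted p = 0.0183) and 1.24 (adjusted p = 0.0307) without KRM RAS replicate 1, while 0 were called without KRM RAS replicate 2 or 3, against CD11chiMϕ without CD11chi RAS replicate 2, 3 or 4, and against CD11cloMϕ without CD11clo RAS replicate 1, 2 or 4.

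Of 18 relatives of the members, 14 were in the counts and 2 to 6 passed the filter in a comparison of groups. Ly75, a receptor of the mannose receptor family (DEC-205) that dendritic cells also use, was lower in KRM than in CD11chiMϕ in Sham (-2.92 ± 0.45, adjusted p = 0.0161) and RAS kidneys (-1.53 ± 0.37, adjusted p = 0.0435) and rose with RAS in KRM (2.49 ± 0.46, adjusted p = 0.0270). Chi3l1, a chitinase-like relative of Chi3l3, was lower in KRM than in CD11cloMϕ in Sham (-5.64 ± 1.66, adjusted p = 0.0258) and RAS kidneys (-5.77 ± 1.08, adjusted p = 0.0306) and fell with RAS in KRM (-2.34 ± 0.49, adjusted p = 0.0328), the direction of Chi3l3 in each case. With KRM RAS replicate 1 left out, Ly75 was at -1.71 against CD11chiMϕ (adjusted p = 0.0305) and 2.31 with RAS in KRM (adjusted p = 0.00675), and Chi3l1 at -6.33 against CD11cloMϕ (adjusted p = 0.0244) and -2.93 with RAS in KRM (adjusted p = 0.00229). Neither was called in these comparisons without KRM RAS replicate 2 or 3, nor with RAS in KRM without KRM Sham replicate 1, 2 or 4, nor Ly75 in RAS kidneys without CD11chi RAS replicate 2, 3 or 4, nor Chi3l1 there without CD11clo RAS replicate 2 or 4. In Sham kidneys Ly75 was not called without CD11chi Sham replicate 1 or KRM Sham replicate 1 or 2, nor Chi3l1 against CD11cloMϕ without CD11clo Sham replicate 1 or any 1 of the 4 KRM Sham libraries.

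The genes whose pattern was most like a member were found by the root mean square difference of log2 CPM, centred on each gene's mean over the 21 libraries, among 14504 genes. For Chi3l3 the nearest were Mmp8, a collagenase of neutrophils (0.77), Retnlg (1.23) and Ccr3, the eotaxin receptor (1.42), and for Retnlg they were Ccr3 (1.01), Chi3l3 (1.23) and Mmp8 (1.27). Chi3l3 and Retnlg were thus near each other and shared both other neighbours. Retnla had Lyz1 (0.88), 1810033B17Rik (1.18) and Siglecg (1.27) and no member among its nearest 3. Ear2 had Gfra2 (0.77), Ryr1 (0.81) and Bex6 (0.82). The distances for Mrc1, to Gbp6 (0.40), Slc45a4 (0.47) and Marcks (0.48), were smaller, and Mrc1 itself varied less, with a standard deviation of 0.89 log2 CPM against 2.55 to 4.39 for the other members. All points share the libraries and their sequencing depth, and the likeness is a description.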

How the data were processed

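RNA of the 21 sorted macrophage libraries was made with the SMART-Seq v4 Ultra Low-Input kit and Nextera XT. The authors aligned paired-end reads to mm10 with the OSA aligner and deposited estimated counts per Ensembl gene, without normalization. They also deposited a second table of TPM on the log2 scale after quantile normalization, used here in alternatives only. Estimated counts were rounded, and lines that share a name (3730 of 37620) were summed into 34236 names. Columns were matched to groups by name, and 0 columns were left unmatched.

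Comparisons of populations within Sham and within RAS kidneys, RAS against Sham within populations, and interactions were tested two-sided in R 4.3.3 by the quasi-likelihood F test of edgeR 4.0.16, fitted only to the groups compared, after filterByExpr (at least 10 counts, total at least 15) and TMM scaling, and p was adjusted over all genes tested (Benjamini-Hochberg). SE is that of the log2 fold change, and log2 CPM for distances and likeness used a prior count of 2. The depth of 6891177 to 18592427 counts makes counting error small except at a few CPM, and intervals and floors of 3 counts cover counting error only. All replicate pairs differed by more than sampling noise, but not equally. The chi-square against counting error, per degree of freedom, was 5.13 between CD11chi RAS replicates 3 and 4. The other pairs of that group were at 94.3 to 128. Between KRM RAS replicates 2 and 3 it was 10.1, against 107 and 136 for the other KRM RAS pairs. The labels do not say whether such close libraries share a source. Promoter and gene positions are from RefSeq and GENCODE vM21 on GRCm38.

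The set held 7 genes, of which 2 are not reported here, and the other 5 were named throughout. From the lists of related genes the called gene with the largest rise and the largest fall were named. Members, lists and tests were chosen with earlier results of these data known. Libraries with the same replicate number deviated together between populations in Sham kidneys (correlations 0.201 to 0.647 in every pair), so the blocked value is given there where it changes a call. In each of the other comparisons at least 1 pair had a correlation under 0.1 (all pairs -0.196 to 0.505), so that the numbers were not taken to pair the libraries. Alternatives were limma 3.58.1 on the log2 table, DESeq2 1.42.0, other size factors and filters, 1 fit over 6 groups, the replicate block, a fold above 2 with an unadjusted p under 0.05, and each library left out. Limma without the mismatched column, the lists with libraries left out, ratios of pooled counts for groups with 3 counts or fewer, and the values of Umod and Slc12a1 were added after seeing the data. On simulated counts for KRM against CD11cloMϕ in Sham kidneys (12126 genes), 88% of genes with a log2 change of 3 and 62.8% of those with 1.5 were called. The CD45-positive non-macrophage cells were not analysed here.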

Additional observations from a re-analysis of the deposited data

Results flagged for a closer look

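In groups of 4 libraries, 15 sets of values were examined on the CPM scale for a library far from the next. The gap to the next, as a share of the whole range, was compared with Dixon's 95% critical value. Chance passes that value in about 1 of 20 sets of normally distributed values. The CPM values were not tested for such a distribution, so that rate is not claimed for them. The gap exceeded the critical value in 2 sets. Both were CD11chi RAS replicate 1: Retnlg was at 91.4 CPM there against 9.04 CPM in the next library (gap 0.901 of the range) and Chi3l3 at 170 CPM against 12.7 CPM (0.928). The same library held the highest Ly6c2 of its group (113 CPM), and the part of this in Retnlg and Chi3l3 was not tested.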

How the results depend on the processing

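Depth limits Retnlg in KRM and CD11chiMϕ from RAS kidneys, where a few counts decide a value, and the calls of the RAS comparisons rest on 3 or 4 libraries. All 5 members stayed called between KRM and CD11cloMϕ in Sham kidneys in every left-out fit. Of the values with each library left out, 334 kept their direction and side of the threshold, 34 lost and 11 gained a call and 16 changed sign. Of the values under other alternatives, 415 were kept, 8 lost and 33 gained a call and 9 changed sign. The causes were not tested.

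Members called moved as follows. With a fold above 2 and an unadjusted p the count was 4 for KRM against CD11chiMϕ and 1 for CD11chiMϕ against CD11cloMϕ in Sham kidneys. In RAS kidneys the count was 3 for each of these. By the same rule it was 1, 2 and 3 for RAS in CD11chiMϕ, RAS in CD11cloMϕ and the KRM against CD11cloMϕ response, and 1 for the CD11chiMϕ against CD11cloMϕ response. DESeq2 gave 4 and 1 for the first pair of Sham comparisons. With at least 10 counts in every library the count was 2 for KRM against CD11cloMϕ in RAS kidneys. There Retnlg and Chi3l3 did not pass that filter, and Retnla (adjusted p = 0.00665) and Ear2 (adjusted p = 0.00580) kept their calls. For the KRM against CD11cloMϕ response the count was 1 with median-of-ratios factors, total library size, no filter or at least 10 counts, and 2 with DESeq2 or limma, with or without the mismatched column. For CD11chiMϕ against CD11cloMϕ in RAS kidneys limma gave 3 and 1 fit over all 6 groups gave 2, and that fit gave 1 for RAS in KRM. Leaving out libraries gave 1 to 4 for KRM against CD11chiMϕ, 5 to 5 against CD11cloMϕ and 0 to 1 between those in Sham, 1 to 2, 0 to 4 and 1 to 3 in RAS kidneys, 0 to 4 for RAS in KRM and 0 to 2 for the KRM against CD11cloMϕ response.

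With a replicate block the count was 1 for KRM against CD11chiMϕ and 2 for CD11chiMϕ against CD11cloMϕ in Sham, 3 for the latter in RAS kidneys and 0 for RAS in KRM. In Sham kidneys, where libraries of the same number deviated together, no call of a member changed beside those given in the text. The labels do not say whether equal numbers mark the same animals. Under the block the log2 fold change reversed to 0.30 for Mrc1 (KRM against CD11cloMϕ, RAS), -0.73 for Retnlg (RAS, CD11chiMϕ) and -0.43 for Retnla (RAS, CD11cloMϕ). Limma reversed the same values to 0.74 (0.50 without the mismatched column), -1.41 and -0.21, and Chi3l3 to 0.32 and 0.28 in the KRM response against CD11chiMϕ and CD11cloMϕ (-1.53 and -1.57 without the mismatched column).

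Left-out libraries reversed values that were not called. They ranged from -0.99 to 0.33 for Mrc1 (CD11chiMϕ against CD11cloMϕ, RAS), -0.88 to 0.20 for Retnla and -0.10 to 1.15 for Ear2 (the same in Sham), and -0.59 to 0.71 for Mrc1 (KRM against CD11cloMϕ, RAS). For RAS they ranged from -2.89 to 1.04 for Retnlg in CD11chiMϕ, -0.29 to 0.48 for Retnla in CD11cloMϕ and -4.09 to 0.37 for Retnlg in KRM. In the KRM against CD11chiMϕ response they ranged from -3.18 to 1.84 for Chi3l3 and -1.22 to 0.063 for Ear2.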
